A study of Rattus norvegicus with 12 samples.

Results

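Acan, Hapln1, Comp and Cytl1 were followed in bone of female rats, as 4 of the 14217 genes that the arrays measured under a symbol of their own. They were chosen by name, and every probe set that the platform annotation assigns to 1 of these symbols alone was used, which gave 7 of the 31042 probe sets tested. Acan had 2 of them, Hapln1 had 3, and Comp and Cytl1 had 1 each.

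The genes encode proteins of the cartilage matrix. Aggrecan, the core protein of Acan, carries chains of chondroitin and keratan sulfate that hold water and let cartilage resist compression. The link protein of Hapln1 locks aggrecan onto hyaluronan threads, and the product of Comp, a pentameric member of the thrombospondin family, binds collagen fibrils and is made in cartilage and tendon. Cytl1 encodes a small secreted cytokine-like protein that chondrocytes make. In a growing long bone these products come mainly from chondrocytes of the growth plate and the articular surface, so that in whole-bone RNA fewer chondrocytes and less RNA per chondrocyte cannot be told apart.

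The rats were all female and were sacrificed at postnatal day (PND) 81. There were 4 groups of 3 arrays. Sham rats (Sham) were fed the casein diet and kept their ovaries, ovariectomized rats on the same casein diet formed the OVX group, ovariectomized rats fed blueberry (BB) long-term, from weaning until sacrifice, formed the LTBB OVX group, and ovariectomized rats fed BB short-term, for a period soon after weaning only, formed the STBB OVX group. No sham rats were fed BB, so the effect of the diets was measured only after ovariectomy. Each array held 1 pool of RNA from several rats, so the spread between arrays is a spread between pools and not between single rats. The sample labels name the femur and the study's methods name the right tibia, and both are long bones with growth plates.

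Values are on a log2 scale and were centred by the authors, so that the 12 values of any probe set have 0 as their median. They give differences between arrays, not levels, and cannot be compared between genes. Typical spread was small, with a median SD over all genes of 0.127 in Sham and from 0.0786 to 0.0875 in the 3 ovariectomized groups. Sham stood far from the other groups. At a limma adjusted p under 0.05, 30.3% of all genes were higher in OVX than in Sham and 28.6% lower. Skeletal muscle markers were lower in OVX than in Sham in 11 of 12 genes, with a median difference of -6.32, erythroid markers in 7 of 7 (median -3.07) and neutrophil markers in 4 of 4 (median -2.94), while chondrocyte markers were higher in 7 of 8 (median 4.89) and osteoblast and osteocyte markers in 7 of 7 (median 2.60). A shift of this kind accompanies every difference from Sham given here, and its part in them was not tested. Pool 1 of STBB OVX had the highest value of its group in all 7 probe sets of the 4 genes, so the results for that group are given with and without it.

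The 250 bases before the start of each gene are shown as a description only, and were not tested against the expression of the genes. The sequences are from RefSeq on the rat build GRCr8 and were found for 4 of the 4 genes, Acan at chr1:142390701-142390950 (plus strand), Hapln1 at chr2:22366717-22366966 (plus strand), Comp at chr16:19089549-19089798 (minus strand) and Cytl1 at chr14:77283646-77283895 (minus strand). Each is written 5′ to 3′ along its gene, and capitals mark a match to ACAAAG or ACAATG, the letters that Sox factors of chondrocytes are known to bind, searched on both strands.
Acan: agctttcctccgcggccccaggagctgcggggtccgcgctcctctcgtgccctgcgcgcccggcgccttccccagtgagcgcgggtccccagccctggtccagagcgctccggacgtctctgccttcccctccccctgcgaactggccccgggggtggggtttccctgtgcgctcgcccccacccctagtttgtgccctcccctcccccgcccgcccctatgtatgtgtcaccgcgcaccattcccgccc
Hapln1: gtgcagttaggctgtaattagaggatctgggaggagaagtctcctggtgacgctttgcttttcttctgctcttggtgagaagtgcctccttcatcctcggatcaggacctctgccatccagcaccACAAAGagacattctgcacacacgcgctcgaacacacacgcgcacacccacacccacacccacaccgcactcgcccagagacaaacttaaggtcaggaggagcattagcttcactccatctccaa
Comp: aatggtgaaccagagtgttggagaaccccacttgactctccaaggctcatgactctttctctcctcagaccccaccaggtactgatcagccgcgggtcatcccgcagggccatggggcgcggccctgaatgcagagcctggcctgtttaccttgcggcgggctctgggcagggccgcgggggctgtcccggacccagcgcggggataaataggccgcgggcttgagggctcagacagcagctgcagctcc
Cytl1: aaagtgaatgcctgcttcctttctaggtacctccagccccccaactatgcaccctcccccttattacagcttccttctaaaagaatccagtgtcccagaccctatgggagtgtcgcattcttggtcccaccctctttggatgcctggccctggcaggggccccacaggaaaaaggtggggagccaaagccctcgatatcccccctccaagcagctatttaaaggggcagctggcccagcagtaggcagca
The Hapln1 stretch held 1 such match, ACAAAG, from 125 to 120 bases before the start, and those of Acan, Comp and Cytl1 held none. Of 33469 rat promoters of this length, 25.3% held at least 1 match. The 4 stretches differed more in their CpG count, the number of C bases followed by G, with 24 for Acan, 14 for Comp, 9 for Hapln1 and 2 for Cytl1, against a median of 5 over all promoters (quartiles 2 and 15). The GC content was 73.6% for Acan, 64.8% for Comp, 56.4% for Cytl1 and 54.0% for Hapln1.

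The first question was how the cartilage matrix genes differed between OVX and Sham, both on the casein diet. Acan, Hapln1 and Comp were far higher in OVX than in Sham, by 10.7-fold, 84.5-fold and 34.1-fold, and each probe set of the 3 genes was higher. Cytl1 moved the other way and was 2.14-fold lower. All 4 differences passed the limma test at an adjusted p under 0.05, the threshold used throughout, where 30.3% of all genes passed as higher and 28.6% as lower. Of the 7 probe sets, 7 passed, against 49.8% of all probe sets in either direction.

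Acan, the aggrecan core protein, was measured by 2 probe sets that gave nearly the same picture. In Sham pools 1, 2 and 3 the centred log2 values of 1368836_a_at were -3.60, -3.25 and -3.49, and in OVX they were 0.47, -0.21 and 0.19. For 1387355_at they were -3.11, -3.05 and -3.09 in Sham and 0.44, -0.16 and 0.19 in OVX. The lowest OVX array stood more than 2 log2 units above the highest Sham array in both. The mean of the 2 probe sets was -3.26 ± 0.10 in Sham and 0.15 ± 0.32 in OVX (SD, n = 3 pools each), a difference of 3.42 (95% confidence interval 3.08 to 3.76, limma adjusted p = 1.26e-09). Acan ranked 34 among the 14217 genes from the highest rise.

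Hapln1, the link protein, had the largest difference of the 4 genes. Its probe set 1370125_at read -6.19, -5.26 and -5.63 in Sham and 0.33, -0.07 and 0.13 in OVX. Probe set 1384541_at read -7.38, -7.06 and -7.38 in Sham and -0.09, 0.09 and -0.15 in OVX, and 1386310_at read -6.40, -6.20 and -5.78 in Sham and -0.03, 0.08 and 0.03 in OVX. The 3 probe sets gave differences of 5.82, 7.22 and 6.16 on the log2 scale. The mean over them was -6.37 ± 0.26 in Sham and 0.036 ± 0.033 in OVX (SD, n = 3), a difference of 6.40 (95% confidence interval 6.01 to 6.79, limma adjusted p = 2.93e-11). This placed Hapln1 at rank 6 among all genes from the highest rise.

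Comp, the pentameric matrix protein, read -4.71, -5.25 and -4.76 in the Sham pools on its 1 probe set, 1387137_at. In the OVX pools it read 0.30, -0.11 and 0.36. The groups lay far apart, at -4.91 ± 0.30 and 0.18 ± 0.26 (SD, n = 3), and the difference was 5.09 (95% confidence interval 4.75 to 5.44, limma adjusted p = 5.68e-11), rank 10 among all genes.

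Cytl1, the secreted cytokine-like protein, read 0.21, 0.79 and 1.19 in Sham on probe set 1375001_at and -0.07, -0.49 and -0.54 in OVX. Pool 1 of Sham lay close to pool 1 of OVX. The spread within Sham, with an SD of 0.49, was wider than that of Acan, Hapln1 or Comp. The difference was -1.09 (95% confidence interval -1.65 to -0.54, limma adjusted p = 0.0024), a 2.14-fold fall (1.45 to 3.14). Quantile normalization of the arrays again gave Cytl1 a difference of -1.05 that no longer passed (adjusted p = 0.0941). The same step kept the calls of Acan, Hapln1 and Comp but lowered their differences to 1.82, 3.26 and 3.05.

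**Figure D1:**
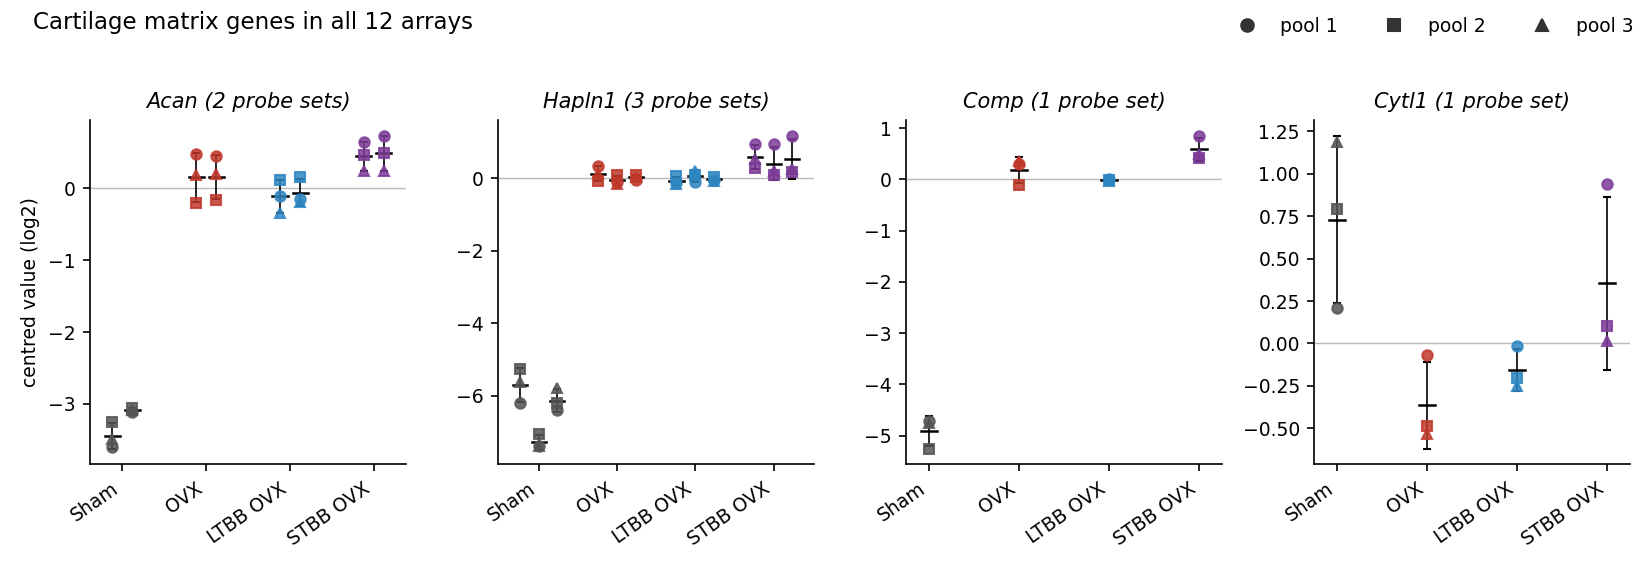
Centred log2 value of each probe set of Acan, Hapln1, Comp and Cytl1 (vertical axis, a separate scale for each gene) in the 4 groups. Points are arrays, shaped by pool number, each column of points is 1 probe set, and bars show the mean and SD of 3 pools; Acan, Hapln1 and Comp lie between -7.38 and -3.05 in Sham and at -0.35 or above in every ovariectomized pool, while Cytl1 is highest in Sham by its mean.

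Both BB groups kept the high values of Acan, Hapln1 and Comp seen after ovariectomy. Against Sham, LTBB OVX was higher by 3.18 for Acan, 6.35 for Hapln1 and 4.90 for Comp on the log2 scale, or 9.03-fold, 81.8-fold and 29.8-fold. STBB OVX was higher by 3.73, 6.88 and 5.49, or 13.2-fold, 117-fold and 45.0-fold. These 6 differences passed the limma test with adjusted p of 2.34e-09 or below, where 29.2% of all genes passed as higher in LTBB OVX and 29.3% in STBB OVX. The 3 comparisons with Sham share the same Sham arrays, so they are not separate evidence on how far Sham lies from the rest.

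Cytl1 was called against Sham in LTBB OVX and not in STBB OVX, which does not test the diets against each other. The direct difference between the diets was 0.51 (95% confidence interval -0.046 to 1.07) and was not called. The difference of LTBB OVX from Sham was -0.89 (95% confidence interval -1.44 to -0.33, limma adjusted p = 0.00931), where 29.1% of all genes passed as lower. In STBB OVX the difference was -0.38 (-0.93 to 0.18, adjusted p = 0.232), the arrays overlapped, and 29.0% of all genes passed as lower. The STBB OVX value rested on pool 1, which read 0.94 beside 0.10 and 0.02 in the other pools. Without that pool Cytl1 was lower than in Sham by -0.67 (adjusted p = 0.0251), and quantile normalization turned the sign to 0.37 (adjusted p = 0.577).

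The next question was whether BB feeding changed the genes within ovariectomized rats. No difference between LTBB OVX and OVX was called. Acan read -0.12, 0.12 and -0.35 (1368836_a_at) and -0.16, 0.16 and -0.19 (1387355_at) in the LTBB OVX pools, within or just below the OVX range. The Hapln1 values lay between -0.14 and 0.21 over the 3 probe sets, and Comp read 0.01, -0.01 and -0.03. For Comp these pools were the tightest of any group, with an SD of 0.023 against 0.26 in OVX. Cytl1 read -0.02, -0.20 and -0.25, in and just above the upper part of the OVX range. The gene differences from OVX were -0.24 for Acan (95% confidence interval -0.58 to 0.10), -0.047 for Hapln1 (-0.44 to 0.34), -0.19 for Comp (-0.54 to 0.15) and 0.21 for Cytl1 (-0.35 to 0.76). None passed the test, with a limma adjusted p of 1 for each, and 0% of all genes passed. At an unadjusted p under 0.05, 0 of the 4 genes and 329 of all genes (2.31%) passed. Leaving out single OVX pools moved these values. The Acan difference was -0.092 without OVX pool 1 and -0.41 (-0.73 to -0.092, adjusted p = 0.806) without OVX pool 2, and that of Comp ran from -0.11 without OVX pool 3 to -0.34 without OVX pool 2. The Cytl1 difference ran from 0.12 without OVX pool 3 to 0.36 without OVX pool 1. The intervals are bounds and not a finding of equal expression.

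By its means, STBB OVX lay above the other ovariectomized groups in each probe set, although single pools overlapped in some of them. Acan read 0.64, 0.45 and 0.23 on 1368836_a_at and 0.72, 0.48 and 0.24 on 1387355_at. Hapln1 read 0.95, 0.30 and 0.53 on 1370125_at, 0.95, 0.09 and 0.19 on 1384541_at, and 1.17, 0.16 and 0.26 on 1386310_at. Comp read 0.85, 0.41 and 0.50, and Cytl1 read 0.94, 0.10 and 0.02. Pool 1 was the highest pool throughout, and it stood well clear of the other pools in Hapln1 and Cytl1 but less so in Acan.

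**Figure D2:**
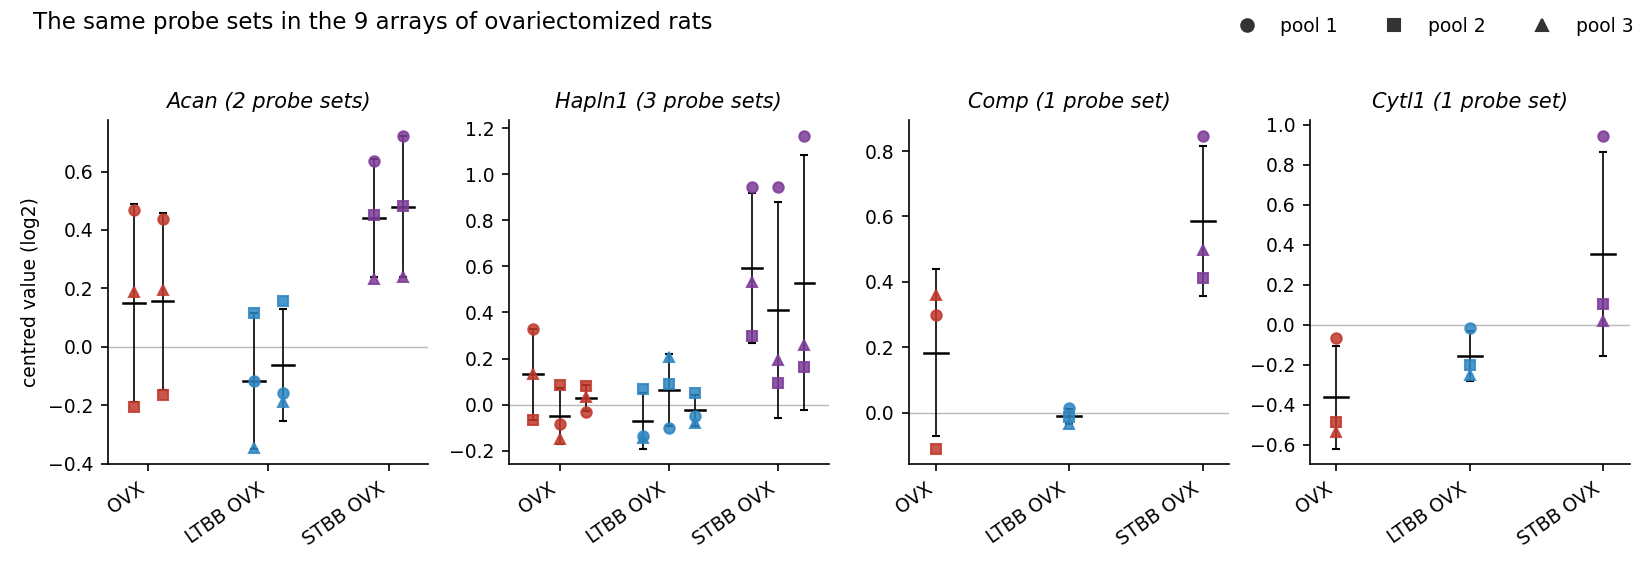
The same probe sets in the 9 arrays of ovariectomized rats, on axes that leave out Sham (vertical axis, centred log2 value). Points are pools, shaped by number, and bars show the mean and SD of 3 pools; in STBB OVX pool 1, the circle, is the highest point of every column, and the other STBB OVX pools still lie above the LTBB OVX pools in 6 of the 7 columns.

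Against OVX on the casein diet, the differences of STBB OVX were 0.31 for Acan (95% confidence interval -0.034 to 0.65), 0.47 for Hapln1 (0.086 to 0.86), 0.40 for Comp (0.058 to 0.75) and 0.72 for Cytl1 (0.16 to 1.27). In folds these are 1.24, 1.39, 1.32 and 1.65. With limma none passed after adjustment (adjusted p of 1 for each gene, with 0% of all genes passing). Before adjustment the limma p was 0.0206 for Hapln1, 0.0257 for Comp, 0.0155 for Cytl1 and 0.0739 for Acan, and 411 of all genes (2.89%) were under 0.05. The arrays of Hapln1, Comp and Cytl1 did not overlap between the groups, as was so for 605 genes (4.26%) in the higher direction. Acan did overlap, because OVX pool 1 at 0.45 exceeded STBB OVX pool 3 at 0.24 in the gene mean.

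Between the diets, the mean of STBB OVX was above that of LTBB OVX in all 4 genes. The amounts were similar with all pools but ran from 0.22 for Cytl1 to 0.47 for Comp without pool 1 of STBB OVX. With all pools the differences were 0.55 for Acan (95% confidence interval 0.21 to 0.89, 1.46-fold), 0.52 for Hapln1 (0.13 to 0.91, 1.44-fold), 0.60 for Comp (0.25 to 0.94, 1.51-fold) and 0.51 for Cytl1 (-0.046 to 1.07, 1.42-fold). For all genes the median was -0.0033, and 90% of the genes fell between -0.15 and 0.18. In the gene means the arrays of the diets did not overlap in any of the 4 genes, against 754 of all genes (5.30%) in that direction. Of the single probe sets, Hapln1 1384541_at did overlap between the diets.

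The differences did not pass the test across all genes. The limma adjusted p was 1 for each gene and 0% of all genes passed. The unadjusted p was 0.00426 for Acan, 0.0126 for Hapln1, 0.00259 for Comp and 0.0688 for Cytl1, with 484 of all genes (3.40%) under 0.05. With 3 pools on each side, the smallest two-sided p of an exact permutation test is 0.1. The STBB OVX arrays enter both of these comparisons, so the comparisons with OVX and with LTBB OVX are not independent.

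Leaving out pool 1 of STBB OVX lowered all of these differences and kept their sign. Against LTBB OVX, Acan was then at 0.44, Comp at 0.47, Hapln1 at 0.27 and Cytl1 at 0.22, and the other pools still lay above every LTBB OVX pool in 4 of the 4 gene means, as they did in 12.2% of all genes with that pool left out. Against OVX the values were 0.20 for Acan, 0.27 for Comp, 0.22 for Hapln1 and 0.42 for Cytl1. The difference between the diets fell by more than 1.5 times for Hapln1 and Cytl1 and by less for Acan and Comp. The comparison with OVX also rested on OVX pool 2, without which the Acan difference was 0.14 and that of Comp 0.26.

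**Figure D3:**
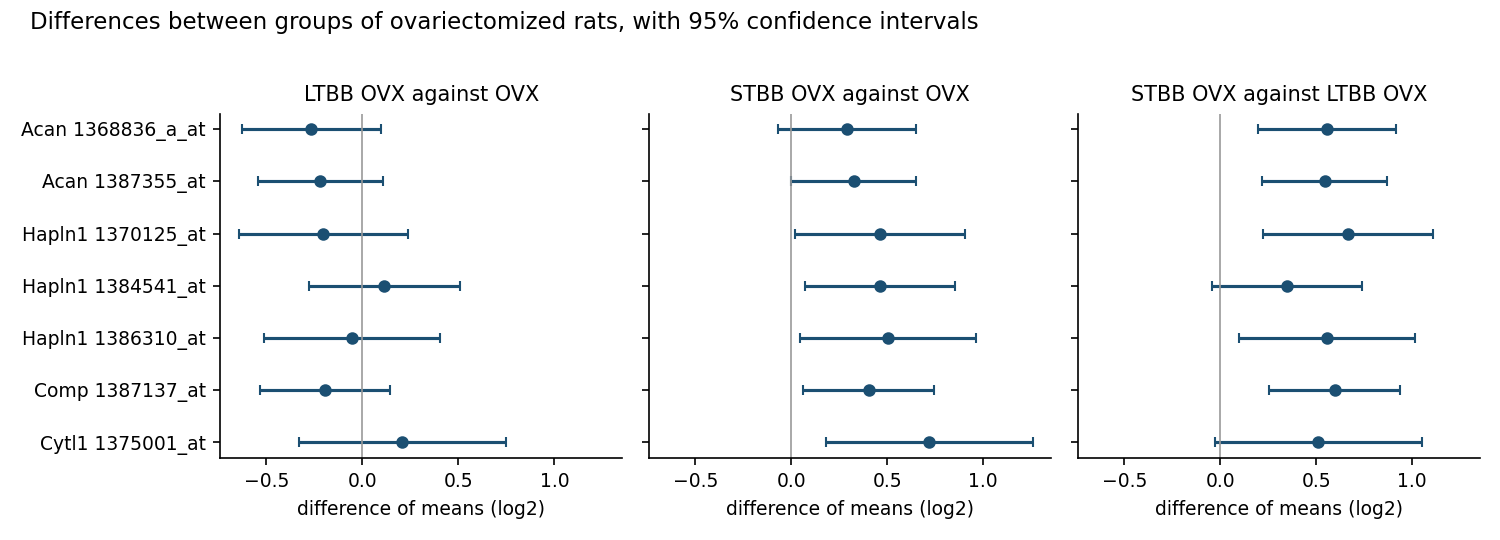
Difference of group means (horizontal axis, log2) for each probe set of Acan, Hapln1, Comp and Cytl1 (rows) in the comparisons LTBB OVX with OVX, STBB OVX with OVX and STBB OVX with LTBB OVX, with 95% confidence intervals from limma. The points lie on both sides of 0 for LTBB OVX, and all 7 lie above 0 for STBB OVX in both comparisons, between 0.29 and 0.72.

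The order of the groups can be read from these values. By the gene means of Acan, Hapln1 and Comp it was Sham, LTBB OVX, OVX and STBB OVX from low to high. Only Sham was separated from its neighbour by a called difference. Hapln1 1384541_at differed in having LTBB OVX, at 0.065, above OVX, at -0.050. For Cytl1 the order was OVX, LTBB OVX, STBB OVX and Sham. No pair of neighbours differed by a called difference there, while OVX and LTBB OVX both lay below Sham.

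Over the 12 arrays Acan, Hapln1 and Comp followed each other with Pearson correlations of 0.992 (Acan and Hapln1), 0.992 (Acan and Comp) and 0.995 (Hapln1 and Comp), and Cytl1 ran against them at -0.55 to -0.58. These values mostly restate the gap between Sham and the rest. Over the 9 arrays of ovariectomized rats the correlations were 0.711, 0.876 and 0.838, and Cytl1 ran with the other genes at 0.689 with Acan, 0.887 with Hapln1 and 0.756 with Comp. The sign for Cytl1 therefore differed between the 2 sets of arrays. The arrays share the per-array scaling, and pool 1 of STBB OVX is the top array of all 4 genes within the 9.

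The genes most like Acan, Hapln1 and Comp over the 12 arrays were mostly other cartilage genes. For Acan they were Cdkn1c, a cyclin-dependent kinase inhibitor (0.997), and the collagen genes Col27a1 and Col9a2. Hapln1 was closest to the collagen gene Col9a1 (0.998), the chondromodulin gene Cnmd and the cartilage lectin gene Clec3a, and Comp to Mia (0.999), which chondrocytes secrete, with Col9a2 and the cartilage membrane proteoglycan gene Snorc. A correlation above 0.9 was common in these arrays, at 17.9% to 18.6% of 13979 genes for these 3 members. Cytl1 had no gene above 0.9, and its nearest were the potassium channel gene Kcnk5 (0.871), Ndufv3 and Fbln1.

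Over the 9 arrays without Sham the nearest genes changed. They were Aldoc (0.952), Snorc and Col27a1 for Acan, and the matrilin gene Matn2 (0.946), Clec3a and Tnfrsf11b, the gene of the decoy receptor osteoprotegerin, for Hapln1. Comp was closest to Cdkn1c (0.979), to Thbs3 (0.971), another pentameric thrombospondin, and to Gfpt2. Cytl1 was closest to Myoc (0.934), Spats2l and Prelp, a leucine-rich proteoglycan of connective tissue. Correlations above 0.9 were rare here, at 0.0215% to 0.157% of genes.

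The other cartilage matrix genes showed the same contrast as Acan, Hapln1 and Comp. Of 17 measured, 14 were higher in OVX than in Sham, 1 was lower and 2 were not called, with a median of 2.99 against 0.0047 for all genes. Among all genes 30.3% passed as higher and 28.6% as lower. The collagen genes rose most, with Col10a1 of hypertrophic chondrocytes at 8.68, Col9a1 at 8.36 and Col9a3 at 8.21, and Cnmd, a secreted inhibitor of vessel growth, at 7.02. The 1 lower gene was Cilp2 at -2.17 (adjusted p = 1.01e-07), named after its value was seen, so Cytl1 was not alone in falling among genes known from cartilage matrix. Between the diets 0 of the 17 passed. In 16 the mean was higher in STBB OVX than in LTBB OVX, against 48.2% of all genes. In 9 the arrays did not overlap in that direction, against 5.30% of all genes, and the median difference was 0.45. Without pool 1 of STBB OVX 15 were higher and the median was 0.31. Against OVX the median of STBB OVX was 0.34, or 0.17 without that pool, and that of LTBB OVX was -0.10.

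Aggrecan and link protein bind hyaluronan, and genes of that system moved less. Of 15 measured, 8 were higher in OVX than in Sham and 2 lower (Hmmr at -1.14 and Lyve1 at -0.52, hyaluronan receptors named after their values were seen), with a median of 0.24. The shares over all genes were 30.3% higher and 28.6% lower. Cemip, which takes part in hyaluronan breakdown, rose by 3.76 and Cemip2 by 1.74, while the synthase gene Has2 rose by 1.58. The nearest relatives of the members differed with the tissue they are known from. The link protein gene Hapln3 rose by 1.76 and versican (Vcan), which many connective tissues make, by 0.90. The genes known from brain did not pass, with Hapln2 at 0.11, Hapln4 at 0.11, neurocan (Ncan) at -0.098 and brevican (Bcan) at -0.039. Between the diets the median of the 15 was -0.0065 and 7 lay above 0, against 48.2% of all genes.

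The chains of aggrecan are built by enzymes of chondroitin and keratan sulfate synthesis. Of 22 measured, 12 were higher in OVX than in Sham, 3 were lower and 7 were not called, with a median of 0.41. Among all genes 30.3% passed as higher and 28.6% as lower. The largest rises were those of Papss2, which makes the sulfate donor, at 2.88, of the chondroitin synthases Chsy1 at 1.72 and Chsy3 at 1.45, and of Ugdh, which makes glucuronic acid units, at 1.25. The 3 that fell, named after their values were seen, were Csgalnact2 (-0.97) and Csgalnact1 (-0.41), which start or extend the chains, and the sulfotransferase gene Chst12 (-0.33). The sulfate carrier gene Slc26a2, also named after its value was seen, stood at -0.014. The median difference between the diets was 0.049.

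Genes of proteases that cut aggrecan or COMP, and of their inhibitors, were higher in OVX in 15 of 17 cases and lower in 1 (Timp3 at -0.39, named after its value was seen), with a median of 1.14. The shares over all genes were 30.3% higher and 28.6% lower. The metalloproteinase genes Mmp9, Mmp13 and Mmp14 rose by 3.43, 3.25 and 2.24 and the inhibitor gene Timp1 by 3.25. The aggrecanase genes Adamts4 and Adamts5, named after their values were seen, rose by 1.37 and 0.59, less than Acan itself. Between the diets the median of the 17 was 0.016.

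Comp belongs to the thrombospondins, of which 3 others were measured. Thbs4 rose by 1.35 (adjusted p = 9.04e-06) and Thbs3 by 1.06 (3.81e-07) in OVX against Sham, and Thbs2 stood at 0.22 (0.37). Comp rose far more than any of them, at 5.09. Between the diets Thbs3 differed by 0.42, Thbs2 by 0.18 and Thbs4 by -0.12, none of them called.

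Of 10 chondrocyte regulators, 8 were higher in OVX than in Sham and 2 lower, with a median of 0.87. Among all genes 30.3% passed as higher and 28.6% as lower. Indian hedgehog (Ihh), a growth plate ligand, rose by 1.93, the growth-restraining receptor gene Fgfr3 by 1.77 and the transcription factor gene Trps1 by 1.54. Sox6, which with other Sox factors is known to drive Acan and Hapln1, fell by 2.62. The second gene that fell was Hdac4 at -0.31, named after its value was seen. Sox9 and Sox5 were not analysed here. Between the diets the median was 0.087.

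**Figure D4:**
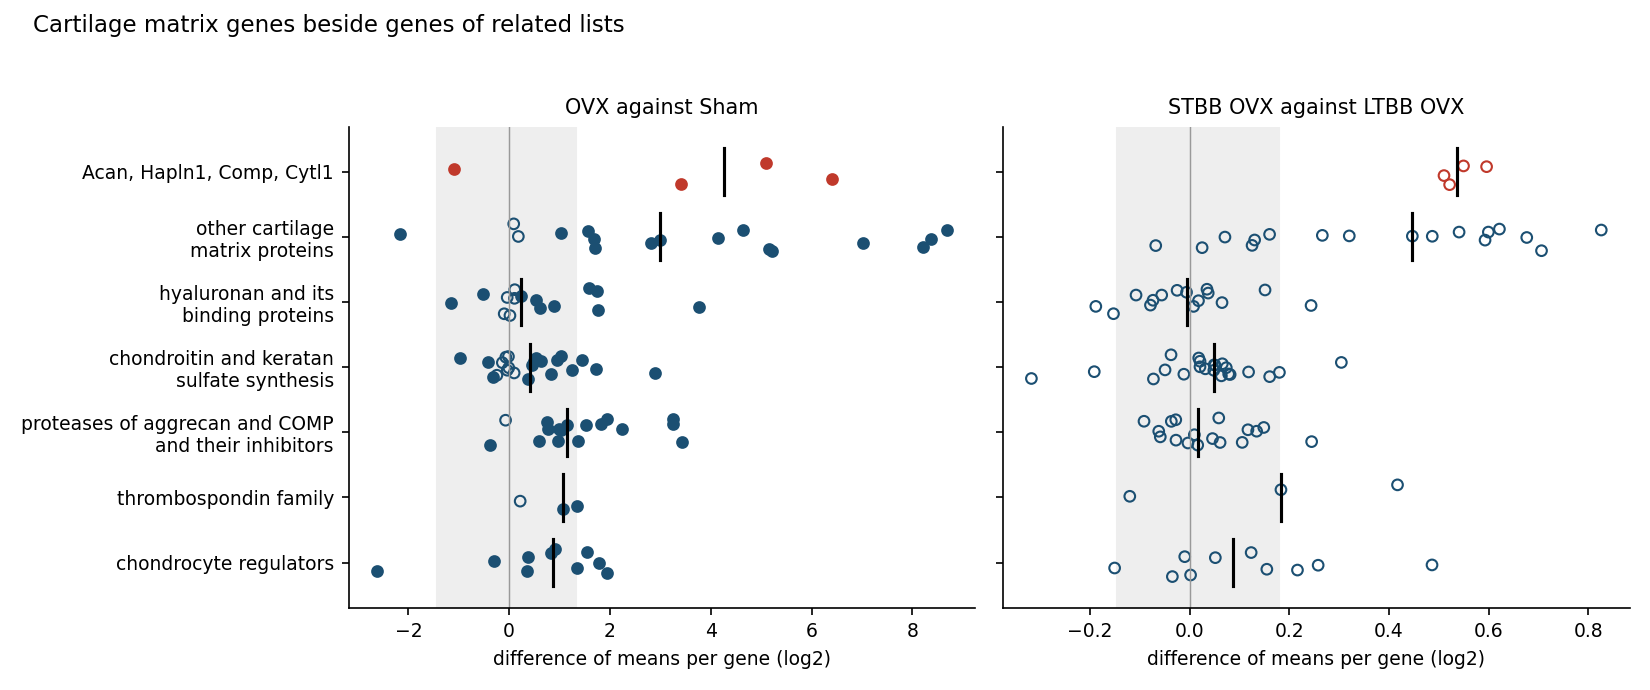
Difference per gene (horizontal axis, log2) for Acan, Hapln1, Comp and Cytl1 (red) and for genes of 6 related lists (blue), OVX with Sham on the left and STBB OVX with LTBB OVX on the right. Filled points passed the limma test at an adjusted p under 0.05, open points did not, black bars are medians and the grey band holds the middle 90% of all genes; only the members, at 0.51 to 0.60, the other cartilage matrix proteins at 0.45 and the thrombospondins at 0.18 have medians beyond the band on the right.

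Cell type markers were set beside the difference between the diets. The mean over 8 chondrocyte markers, none of them a member but all of them in the cartilage matrix list, was 0.62, 0.34 and 0.14 in the STBB OVX pools but -0.060, 0.037 and -0.051 with LTBB, so chondrocyte markers moved with the 4 genes and pool 1 was again highest. The osteoblast and osteocyte mean over 7 markers ran from -0.0026 to 0.091 in STBB OVX, against 0.018 to 0.10 with LTBB, with a median gene difference of -0.017. The mean over tendon and ligament markers, of which 4 were measured, ran from 0.17 to 0.22 in STBB OVX, above the range of -0.067 to 0.094 with LTBB. Their gene differences ran from -0.12 to 0.64 with a median of 0.083, and 0 of the 4 passed. Of these 4, 2 were higher and 2 lower in OVX than in Sham, where 30.3% of all genes passed as higher and 28.6% as lower.

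Skeletal muscle markers also differed between the groups. Their mean over 12 genes was -0.069, 0.57 and 0.60 in the STBB OVX pools, against -1.72, -2.96 and 0.40 with LTBB. It was -2.49, -1.19 and -2.93 in OVX and ran from 3.22 to 4.09 in Sham. Pool 3 of LTBB OVX had a muscle mean near those of STBB OVX. It read -0.27 for Acan, -0.0049 for Hapln1, -0.033 for Comp and -0.25 for Cytl1, below every STBB OVX pool. Within STBB OVX, pool 1 had the lowest muscle mean and the highest value of all 4 genes. Erythroid means were lower in STBB OVX, at -0.25 to -0.17, than in LTBB OVX, at -0.086 to 0.17, and neutrophil means overlapped. Whether the share of muscle or cartilage in the bone pieces differed between pools, and its part in these values, was not tested.

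**Figure D5:**
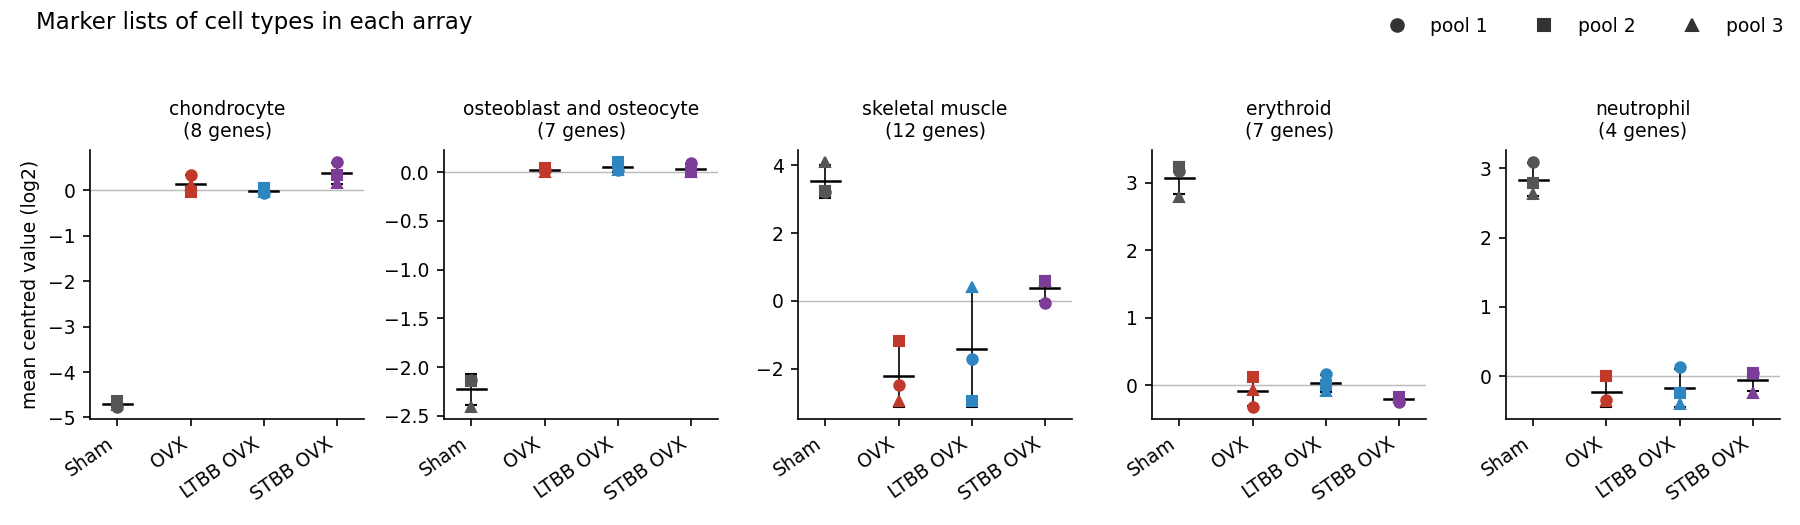
Mean centred log2 value over the markers of 5 cell types (vertical axis, a separate scale for each) in each array of the 4 groups. Points are pools, shaped by number, and bars show the mean and SD of 3 pools; chondrocyte and osteoblast markers are low and muscle, erythroid and neutrophil markers high in all 3 Sham pools, and chondrocyte markers in STBB OVX run from 0.14 to 0.62.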

How the data were processed

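RNA of rat long bone was hybridized to Affymetrix Rat 230 2.0 arrays, 3 pools per group and 12 arrays in all. Per the methods and the submitters' processing notes, the authors used GCOS and RMA (robust multiarray analysis) and then scaled each chip and each gene in GeneSpring. The deposited values are log2 and all 31042 probe sets tested are centred on a median of 0, so level, depth and closeness to background are unknown. The precision is limited by the number of arrays.

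Of 31099 table rows, 57 control probe sets were left out. The platform annotation gave 20826 rows 1 symbol, 436 several and 9780 none. Of the rows with 1 symbol, 20758 were matched by gene ID to RefSeq names (GRCr8), whether or not the symbol changed. A gene is the mean of its probe sets. The 4 group means were fitted over all 12 arrays with limma 3.58.1 (R 4.3.3), all 6 pairs of groups were compared, and p-values were adjusted (Benjamini-Hochberg) over all 14217 genes or all probe sets, with a threshold of 0.05. P-values measure the spread between pools only. The fit was tested on simulated data. Python 3.11.15 and matplotlib 3.10.9 were used for the figures.

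The members, lists and tests were chosen with earlier results of these data known. Named from the lists were up to 4 genes with the largest difference between OVX and Sham, all thrombospondins, Vcan, Ncan, Bcan and the link proteins, and the 3 genes nearest to each member by Pearson correlation. Alternatives were rescaled, quantile normalized and weighted arrays, fewer groups, a block for pool number, 1 probe set per gene, robust moderation and each array left out. Leaving out arrays for the list counts was added after seeing the data. Pools that share a number did not deviate together (18 pairs, correlations from -0.279 to 0.158), so the number was not taken as a pairing.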

Additional observations from a re-analysis of the deposited data

How the results depend on the processing

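For Acan, Hapln1, Comp and Cytl1, 463 of 468 values from the 6 comparisons under the alternatives kept both direction and side of the threshold. The exceptions were all Cytl1 against Sham. The count overstates the number of separate checks, since leaving out an array outside the 2 groups compared does not alter a difference. Quantile normalization of the arrays again gave -1.05 for OVX (adjusted p = 0.0941) and -0.61 for LTBB OVX (adjusted p = 0.326), neither called, and turned STBB OVX to 0.37. Leaving out arrays in turn moved STBB OVX against Sham between -0.67 (without STBB OVX pool 1, called) and -0.15 (without Sham pool 3), and it was also called without Sham pool 1 at -0.64 (adjusted p = 0.0428). The cause was not tested. Quantile normalization raised the differences between the diets to 1.24 for Acan, 1.13 for Hapln1, 1.30 for Comp and 0.98 for Cytl1. The limma adjusted p were 0.302, 0.348, 0.154 and 0.526. That step was run on values already centred per probe set and made the distributions of all arrays alike, Sham included. The size of these differences therefore depends on it.

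The count of genes called moved with the same step, from 4301 higher and 4066 lower to 1537 and 1473 in OVX against Sham, from 4153 and 4137 to 1699 and 1493 in LTBB OVX, and from 4167 and 4116 to 1589 and 1553 in STBB OVX. Between STBB OVX and LTBB OVX, where limma called 0 genes (484 at an unadjusted p under 0.05), it called 8 higher and 2 lower, while leaving out LTBB OVX pool 3 gave 8 higher and leaving out STBB OVX pool 1 gave 1 higher. Between STBB OVX and OVX, with 0 called (411 unadjusted), there was 1 higher after quantile normalization, 40 higher with these 2 groups fitted alone, 8 without LTBB OVX pool 3 and 1 without STBB OVX pool 1. Acan, Hapln1, Comp and Cytl1 were called between diets under none of these. A replicate block for pool number changed no call: it gave 3.42 for Acan, 6.40 for Hapln1, 5.09 for Comp and -1.09 for Cytl1 in OVX against Sham, and for STBB OVX against LTBB OVX adjusted p of 0.944 for Acan and 0.662 for Comp.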

Other observations

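Markers of 5 other cell types were also compared between OVX and Sham, where 30.3% of all genes passed as higher and 28.6% as lower. Of the osteoclast markers 4 of 4 were higher in OVX, with a median of 3.17 on the log2 scale, and of the endothelial markers 4 of 5 were higher and 1 lower (median 0.74). Adipocyte markers were higher in 1 and lower in 3 of 6 (median -0.39), blood progenitor markers higher in 2 and lower in 2 of 4 (median -0.18), and B cell markers lower in 1 of 3 (median -0.20). Between the diets none of these markers passed, and the medians of STBB OVX against LTBB OVX were -0.029 for osteoclast, -0.040 for endothelial, 0.14 for adipocyte, -0.0036 for blood progenitor and 0.022 for B cell markers.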
